A study of Mus musculus with 380 samples.

Results

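Serpinf1, Spon2, Penk, P4ha3, Cth, Adra2c, Sipa1l2 and Prr32 were described across thymic epithelial cells (TECs) of mice that make extra Fgf7. These 8 genes, of 30324 genes listed, were selected on their measured levels, which were higher in Foxn1-Fgf7 transgenic than in wild-type mice at postnatal day 28 (P28). Their levels in that contrast are therefore given as a description with no test. The 8 genes were tested only between classes of cells, between sorted and unsorted cells and between wild-type ages. Other genes were also tested between genotypes at P28. The tests of the 8 genes use mice of the same contrast, so their calls describe the samples and are not independent support for the choice of genes.

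Thymi had been dissociated with enzymes, CD45- EpCAM+ cells sorted singly, and transcripts counted by CEL-Seq2, which tags the 3′ end of each RNA with a cell barcode and a molecular barcode. The wild-type mice (strain label C57BL/6) were 1 female each at E16.5, P0 and 1 year and 4 mice at P28. Of the latter, 3 were barcoded (1 male and the females A and B) and a further male was not. The transgenic mice were a non-barcoded male (strain label FVB/N, backcrossed to C57BL/6J) and a barcoded female (C57BL/6) at P28, and a male at 1 year (C57BL/6). In the transgene, an Fgf7 cDNA is driven by the Foxn1 promoter, so that the TECs themselves make the ligand. The barcoded mice also carried hU6-sgRNA-Hprt, Foxn1-cre and Rosa26-LSL-Cas9-EYFP, which scar the Hprt gene in cells that express Foxn1. Only a part of each well's volume went into their transcriptome libraries, and per the study's methods the mice at the other ages were of this kind. No treatment was given. The labels do not say how many animals gave the 12 libraries of the non-barcoded transgenic male, and they were counted as 1 mouse.

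Fgf7 (keratinocyte growth factor) is normally made by mesenchymal cells and binds the receptor Fgfr2b on epithelia, where it acts through the kinase ERK. Targets and feedback inhibitors of ERK include the transcription factors Etv4 and Etv5 and the Sprouty proteins. In the thymus the pathway sets the size of the TEC compartment. TECs of the cortex (cTECs) express the proteasome subunit Psmb11 and the protease Prss16 and support the early steps of T cell development, whereas those of the medulla (mTECs) express Krt5 and, in a mature form, Aire, and present self antigens.

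By role, 3 of the genes encode secreted proteins. Serpinf1 (chr11:75409769-75422701, minus strand, GRCm38) encodes pigment epithelium-derived factor, a non-inhibitory serpin that acts against blood vessel growth. Spon2 (chr5:33198184-33218455, minus strand) encodes spondin 2, an extracellular matrix protein of the thrombospondin-repeat family. Penk (chr4:4133531-4138819, minus strand) encodes proenkephalin, the precursor of the enkephalin opioid peptides. In the secretory pathway and in metabolism, P4ha3 (chr7:100285520-100319699, plus strand) encodes a catalytic subunit of collagen prolyl 4-hydroxylase, and Cth (chr3:157894248-157925077, minus strand) encodes cystathionine gamma-lyase, which makes cysteine from cystathionine. Adra2c (chr5:35278319-35281763, plus strand) encodes an alpha-2 adrenergic receptor and Sipa1l2 (chr8:125418063-125569808, minus strand) a relative of the Rap GTPase-activating protein Sipa1. Prr32 (chrX:45090904-45092791, plus strand) encodes a proline-rich protein. All 8 are annotated as protein coding, and reads were counted in exons, near the 3′ end.

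Promoters of the genes were searched because the genes were higher together and Foxn1 is the transcription factor on which TECs depend. Sequences from RefSeq (GRCm38.p6), from 250 bases before to 50 after the start, were at hand for 5 of the 8 genes. They were searched on both strands for GACGC, the core of the site bound by Foxn1, for the AP-1 site TGANTCA and for TATAAA. Capitals mark GACGC or its reverse complement.
Serpinf1, chr11:75422574-75422873, minus strand: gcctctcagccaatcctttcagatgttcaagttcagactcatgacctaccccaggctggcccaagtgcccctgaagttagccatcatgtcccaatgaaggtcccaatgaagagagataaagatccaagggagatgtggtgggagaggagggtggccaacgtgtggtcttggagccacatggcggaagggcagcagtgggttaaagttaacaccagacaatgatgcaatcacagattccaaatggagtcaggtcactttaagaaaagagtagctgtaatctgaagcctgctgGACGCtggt
P4ha3, chr7:100285270-100285569, plus strand: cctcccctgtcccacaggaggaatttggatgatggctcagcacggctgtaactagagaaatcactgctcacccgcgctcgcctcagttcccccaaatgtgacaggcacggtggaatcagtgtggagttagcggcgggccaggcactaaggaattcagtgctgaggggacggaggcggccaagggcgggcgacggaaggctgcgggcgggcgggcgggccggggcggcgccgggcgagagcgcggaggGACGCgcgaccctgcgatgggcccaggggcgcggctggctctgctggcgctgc
Adra2c, chr5:35278316-35278615, plus strand: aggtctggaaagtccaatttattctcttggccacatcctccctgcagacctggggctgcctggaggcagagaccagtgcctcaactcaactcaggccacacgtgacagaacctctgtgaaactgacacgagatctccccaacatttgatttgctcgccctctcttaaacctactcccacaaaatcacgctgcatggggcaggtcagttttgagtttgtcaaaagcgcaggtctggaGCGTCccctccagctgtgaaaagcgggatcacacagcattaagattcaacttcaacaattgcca
Sipa1l2, chr8:125569814-125570113, minus strand: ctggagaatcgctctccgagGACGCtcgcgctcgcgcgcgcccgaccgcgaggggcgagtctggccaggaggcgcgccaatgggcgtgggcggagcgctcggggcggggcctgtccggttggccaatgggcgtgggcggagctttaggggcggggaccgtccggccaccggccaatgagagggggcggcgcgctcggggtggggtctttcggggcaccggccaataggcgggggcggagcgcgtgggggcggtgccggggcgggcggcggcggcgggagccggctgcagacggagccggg

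Each of these 4 windows held 1 match to GACGC, and the window of Prr32 and a second, downstream promoter of Sipa1l2 held 0. Of all 27025 promoters of this length, 27.4% held the motif, so a match is common. TATAAA stood in 0 of the 5 genes' windows and in 14.2% of all promoters. The AP-1 site stood only in that second promoter of Sipa1l2 and in 7.93% of all promoters. The windows differed in base composition, with 42.7% G and C in Prr32, 50.7% in Serpinf1, 51.3% in Adra2c, 69.3% in P4ha3 and 78.7% in the first promoter of Sipa1l2.

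Levels are given as CPM, the transcripts of a gene scaled to a total of 1000000 transcripts over a mouse's unsorted cells, with exact 95% Poisson intervals in the plot of levels by mouse, which cover counting error only. Between 1055 and 5036 unsorted cells per mouse were kept, with 9449988 to 40884505 transcripts, and the median per cell was 3768 to 12358. No cell profile was identical to another, and all libraries share the same 96 well barcodes. The label check was Fgf7 itself, at 1.26 ± 0.613 CPM (SD, n = 4) in wild-type P28 mice, 47.4 and 100.2 CPM in the transgenic male and female, and 20.3 CPM in the 1-year transgenic male against 6.31 CPM in the 1-year wild type. The barcoded transgenic libraries are described as wild-type in 1 label field and as Fgf7 tg in the genotype field, and their Fgf7 level went with the second. In the non-barcoded wild-type male, 4 libraries labelled as a biological replicate each had at least 77.5 times the highest Xist level of the other 16 (4.03 CPM), which goes against their label of male. Without these 4 libraries the wild-type mean of Serpinf1 was 14.5 in place of 14.4 CPM and that of Penk 40.3 in place of 40.8 CPM, and the transgenic over wild-type ratios of the 8 genes without barcoding were 2.75 to 51.6 in place of 2.79 to 59.3. Epithelial markers (Epcam, Krt8, Krt18 and Cdh1) summed to 2762 to 8850 CPM and 10 thymocyte markers to 30.4 to 857 CPM. In a level summed over cells, more cells that express a gene and more RNA per cell cannot be told apart.

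Among the secreted proteins, Serpinf1 and Spon2 were higher at P28 in both transgenic mice than in any wild-type mouse. Serpinf1 was 6.78 CPM in the non-barcoded wild-type male, 11.5 in the barcoded male, 19.7 in female A and 19.6 in female B, against 62.7 in the transgenic male and 162 in the transgenic female. Spon2 was 3.66, 17.5, 28.4 and 24.4 CPM in the same wild-type mice, and 61.6 and 220.5 CPM in the transgenic ones. Of the wild-type P28 mice, the non-barcoded male was lowest for both genes, as he was for each of the 8 genes. Within a protocol, the transgenic over wild-type ratio was 9.26 without and 9.57 with barcoding for Serpinf1, and 16.8 and 9.4 for Spon2. The ratio without barcoding sets the transgenic male against the non-barcoded wild-type male alone. These mice also differ in strain label, which cannot be told apart from genotype, here and in all later comparisons within this protocol. Penk was 13.5, 41.1, 51.1 and 57.6 CPM in wild-type mice and 37.7 and 198 CPM in transgenic mice. Its groups overlapped, since the transgenic male lay below 3 wild-type mice, and its ratio was 2.79 without and 3.97 with barcoding.

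P4ha3 and Prr32 overlapped in the same way as Penk. For P4ha3, the wild-type mice had 14.8, 62.5, 67.8 and 65.5 CPM and the transgenic mice 43.2 and 211 CPM. Prr32 stood at 2.1, 13.9, 12.4 and 15.8 CPM in wild-type mice and at 10.1 and 75.7 CPM in transgenic mice. In both genes the transgenic male was above the non-barcoded wild-type male only, and the transgenic female was above every mouse.

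Cth, Adra2c and Sipa1l2 did not overlap between genotypes. Cth was 5.9, 14.9, 16.7 and 22.9 CPM in wild-type mice and 26.1 and 76.7 CPM in transgenic mice, so the transgenic male lay just above wild-type female B. Sipa1l2 was 9.06, 12.9, 15.6 and 18.6 CPM against 40.2 and 97.6 CPM. Adra2c, the rarest of the 8 genes, rested on 2, 7, 3 and 16 transcripts in the wild-type mice (0.0975, 0.211, 0.305 and 1.26 CPM) and on 48 in the transgenic male (5.78 CPM). The transgenic female had 9.36 CPM of it, above all the others at P28.

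In total 5 of the 8 genes were above all 4 wild-type mice in both transgenic mice, where 2.22% of 22998 genes with at least 20 transcripts were, and the rule itself chose for this direction. In the edgeR fit over all genes with protocol as a covariate, 0.545% of 20562 genes were called higher and 0.102% lower, and no test of the members is given from it. The 2 transgenic mice differ in sex, in strain label and in protocol, which cannot be told apart, and the level of each of the 8 genes was higher in the female.

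**Figure D1:**
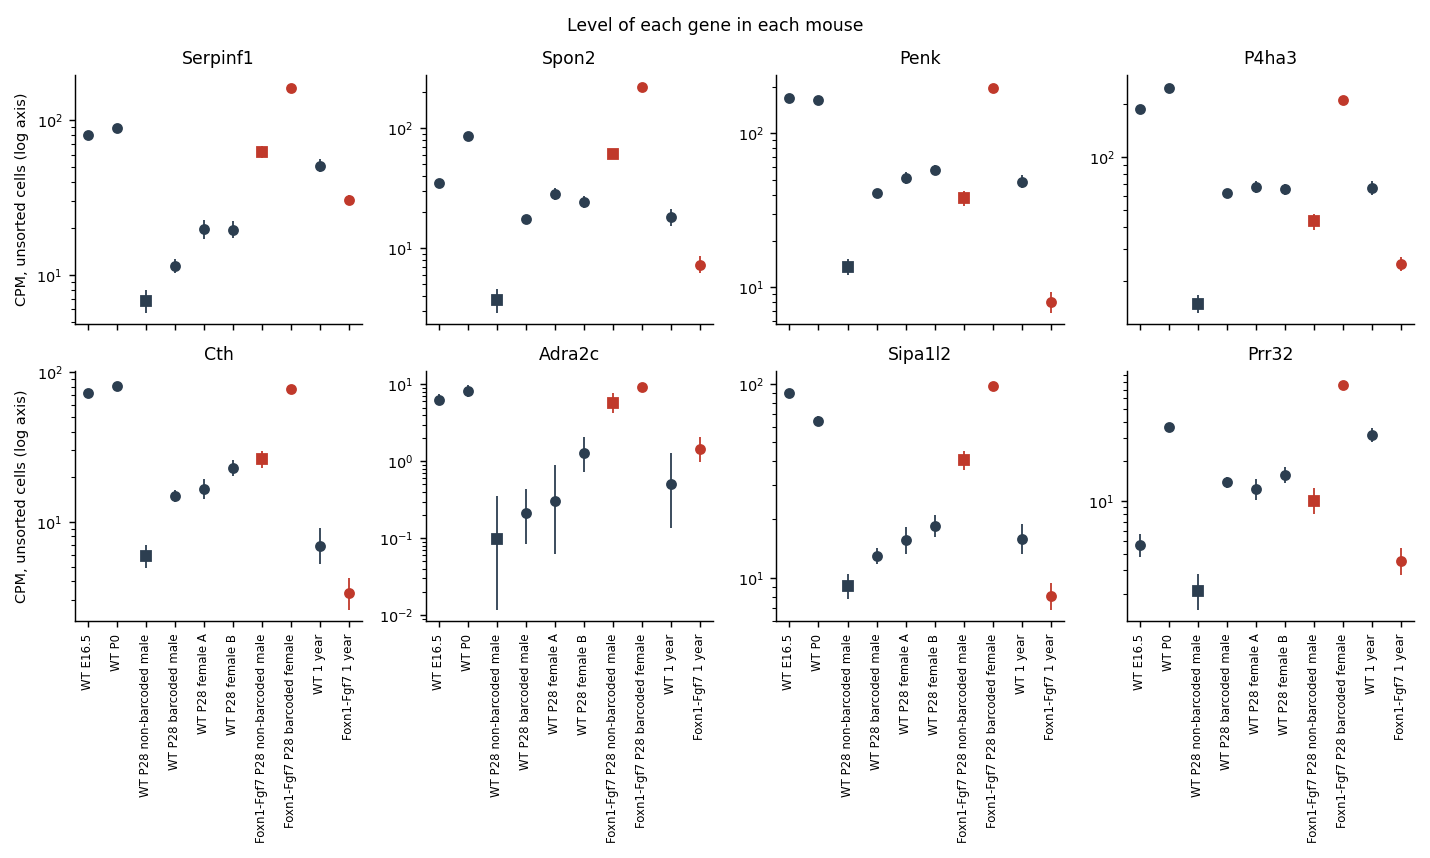
Level of each gene in each mouse in CPM (log axis), with wild-type mice in dark blue, Foxn1-Fgf7 mice in red, barcoded mice as circles and non-barcoded mice as squares; bars are exact 95% Poisson intervals. The transgenic female at P28 is the highest P28 mouse for all 8 genes, with 162 CPM of Serpinf1 and 220.5 CPM of Spon2, and the 1-year transgenic mouse (30.5 and 7.26 CPM) lies below her throughout.

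Of the pathway lists that go with Fgf7 and with the roles of the 8 genes, the ERK list held called genes at P28. Its 16 genes all passed the filter, and 3 were called higher and 0 lower, with a median log2 fold change of 0.78 against -0.01 over all genes tested. Etv5 was 7.37-fold (adjusted p = 0.0151), Spry1 5.58-fold (adjusted p = 0.0106) and Etv4 3.98-fold higher (adjusted p = 0.0445, edgeR quasi-likelihood test). Among 8 tested Fgf receptors and ligands, Fgf7 was 68.3-fold (adjusted p = 0.00876) and Fgf1 2.52-fold higher (adjusted p = 0.0481, edgeR). These 5 calls were lost without the protocol covariate, in which the adjusted p was 0.252 for Etv5, 0.278 for Spry1 and 0.0513 for Fgf7. Without the transgenic female it was 0.329 for Etv5, 0.204 for Spry1 and 0.241 for Fgf7, and the calls were lost as well. All 5 were also lost without wild-type female A, when 0 of 20848 genes were called, and without the barcoded male (adjusted p from 0.0597). The other lists had 0 or 1 call each, which likewise ended without female A or the protocol covariate, namely Psat1 of 12 amino acid response genes and Thbs2 of 7 spondins and related matrix proteins, and 0 of 16 genes of collagen modification, 13 of cysteine metabolism, 9 of opioid signalling, 6 adrenergic receptors, 7 serpins and 8 relatives of Sipa1.

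To ask in which cells the genes were high, each cell was thinned to 1000 transcripts and put in 1 of 4 exclusive classes: Aire+ with at least 1 Aire transcript, Psmb11+ with at least 1 Psmb11 transcript and no Aire, Krt5+ with at least 2 Krt5 transcripts and neither of the others, and cells with none of the 3. At P28, the share of Psmb11+ cells was 5.54 to 12.1% in wild-type mice, 6.0% in the transgenic male and 33.6% in the transgenic female. Krt5+ cells were 26.9 to 39.8% in wild-type mice, and 17.9% and 20.9% in the transgenic mice. The class with none of the 3 was large (35.6 to 54.2% in wild-type mice, 65.9% and 40.1% in transgenic mice) and is not a cell type, since a cell of any type can miss its marker at this depth. The classes were checked with Prss16, another cortical gene, which in wild-type mice was 2525 to 6268 CPM in Psmb11+ cells and 41.6 to 386.8 CPM in Krt5+ cells.

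In wild-type P28 mice, 6 of the 8 genes were higher in Psmb11+ than in Krt5+ cells, where 7.9% of 16185 genes were called higher and 9.05% lower in the edgeR fit with the mouse as a block. Cth had the clearest difference, with 36.3, 68.3, 69.2 and 75.2 CPM in the Psmb11+ cells of the non-barcoded male, barcoded male, female A and female B against 1.14, 7.51, 6.85 and 6.7 CPM in their Krt5+ cells (log2 fold change 3.46 ± 0.30 SE, adjusted p = 3.37e-06). The Psmb11+ values exceeded the Krt5+ values in every mouse. Penk was 93.1 ± 29.8 against 22.2 ± 16.6 CPM (SD, n = 4 mice; adjusted p = 0.00187) and Prr32 38.2 ± 17.8 against 7.95 ± 5.67 CPM (adjusted p = 0.00174). Sipa1l2 was 31.1 ± 9.2 against 7.91 ± 2.06 CPM (adjusted p = 7.39e-04), Serpinf1 36.6 ± 4.14 against 10.1 ± 5.27 CPM (adjusted p = 0.00485) and P4ha3 131 ± 43.6 against 53.9 ± 23.96 CPM (adjusted p = 0.0113). Spon2, at 40.6 ± 16.2 against 19.8 ± 10.8 CPM, did not pass (log2 difference 1.07 ± 0.44 SE, adjusted p = 0.116), and neither did Adra2c with 1.33 ± 0.746 against 0.137 ± 0.274 CPM (adjusted p = 0.141). Over the 8 genes the median log2 difference was 2.13, against -0.01 over all genes tested. The genes were chosen as higher in transgenic mice, of which the female had more Psmb11+ cells, so the choice favoured genes of this class. The calls and this median are therefore a description, from which nothing is read about the 8 genes as a group. Serpinf1, Cth and Sipa1l2 kept their calls in all 10 alternatives, while without the mouse as a block the calls of P4ha3 (adjusted p = 0.321), Penk (0.131) and Prr32 (0.109) were lost. That of P4ha3 was also lost without the barcoded male (0.0621) and without female B (0.0563). Spon2 was called without a filter (adjusted p = 4.92e-06) and without the transgenic male (0.00402) or female (0.00923), and Adra2c without a filter (0.0338).

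Thymocyte transcripts moved with these classes: the 10 markers summed to 166 to 1395 CPM in Psmb11+ cells and to 31.1 to 286.1 CPM in Krt5+ cells of wild-type mice, and the part of this in the difference was not tested.

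Fewer of the 8 genes differed between Aire+ and Krt5+ cells of wild-type mice. Cth was higher in Aire+ cells, at 15.03 ± 4.22 against 5.55 ± 2.96 CPM (edgeR, adjusted p = 0.00315), and so was Sipa1l2, at 15.7 ± 2.84 against 7.91 ± 2.06 CPM (adjusted p = 0.0229). Spon2 was lower, at 5.01 ± 3.47 against 19.8 ± 10.8 CPM (adjusted p = 0.00547), as was P4ha3, at 28.4 ± 17.2 against 53.9 ± 23.96 CPM (adjusted p = 0.0229). That is 2 genes higher, where 21.7% of 16185 genes were called higher, and 2 lower, where 19.5% were, so the counts were close to the background. The call of Cth held in all 10 alternatives, while those of Sipa1l2, P4ha3 and Spon2 were lost in 4, 3 and 2 of them. Without the mouse as a block the adjusted p was 0.0855 for Sipa1l2, 0.309 for P4ha3 and 0.0652 for Spon2, and without the barcoded male it was 0.0764, 0.151 and 0.0727. The other 4 genes did not pass. Of these, Serpinf1 was called lower in 4 alternatives, without a filter (adjusted p = 2.84e-05), without the non-barcoded wild-type male (0.0158), and without the transgenic male (0.0364) or female (0.0346), which share the fit. Penk was called higher without a filter (2.86e-04).

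The genes were selected for higher levels in the 2 transgenic P28 mice, of which the female had more Psmb11+ cells, so the selection and a higher level in this class are not independent. The calls within these mice are therefore a description, and nothing is read from their number. In them, 5 of the 8 genes were called higher in Psmb11+ than in Krt5+ cells, where 5.23% of 16185 genes were called higher. Cth was 114.9 and 117 CPM in the Psmb11+ cells of the male and female and 3.4 and 15.9 CPM in their Krt5+ cells (edgeR, adjusted p = 1.56e-04). Sipa1l2 was 135 and 125 CPM against 5.96 and 35.7 CPM (adjusted p = 8.26e-04), Spon2 217.03 and 252.5 CPM against 15.3 and 96.9 CPM (adjusted p = 0.0141), Serpinf1 202.6 and 166 CPM against 12.8 and 78.8 CPM (adjusted p = 0.0164) and Penk 136.5 and 243 CPM against 3.4 and 96.5 CPM (adjusted p = 0.0262). The ratio between the classes was larger in the male for each of these genes, with lower levels in his Krt5+ cells, and he had 63 Psmb11+ cells. P4ha3 (adjusted p = 0.0726), Adra2c (0.086) and Prr32 (0.0816) did not pass, and each was called in some of the 10 alternatives (P4ha3 with DESeq2, adjusted p = 0.0334, and Prr32 without the non-barcoded wild-type male, 0.00458). None of the 8 genes was called in Aire+ against Krt5+ cells of the transgenic mice (edgeR), where 21.8% of 16185 genes were called in either direction. There 2 of the 8 had an unadjusted p under 0.05, and DESeq2 called 0. Without a filter, Serpinf1 (adjusted p = 2.71e-05), Spon2 (0.0431) and P4ha3 (0.0358) were called lower and Cth higher (0.0126). Serpinf1 (0.0493) and Cth (0.0391) were also called without the non-barcoded wild-type male, Cth with stricter class limits (0.043), and Spon2 without the transgenic female (log2 difference -4.50, adjusted p = 0.0186). The calls of Cth and Sipa1l2 between Psmb11+ and Krt5+ cells held in all 10 alternatives. Without the mouse as a block the calls of Serpinf1 (adjusted p = 0.113), Spon2 (0.316) and Penk (0.405) were lost, and without the transgenic male those of Serpinf1 (0.235) and Penk (0.196). Penk was also lost without wild-type female A (0.0507) and without the barcoded male (0.0521).

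Compared between genotypes, levels were higher in the Psmb11+ cells of each transgenic mouse than in those of the wild-type mice of its protocol. Without barcoding this sets 63 cells of the transgenic male against 93 cells of 1 wild-type male. There 6 of the 8 genes were above all 4 wild-type mice in both transgenic mice (7.76% of 15456 genes), and all 8 were above the wild-type mice of their own protocol (17.9%). The rule itself chose the genes for this direction. These counts and those of the other classes below are therefore a description, from which nothing is read. Serpinf1 was 32.1 CPM in the Psmb11+ cells of the non-barcoded wild-type male and 36.04 to 42.1 CPM in those of the barcoded mice, against 202.6 and 166 CPM in the transgenic male and female. Spon2 was 19.4 and 38.1 to 57.5 CPM against 217.03 and 252.5 CPM, and Sipa1l2 22.8 and 25.97 to 43.7 CPM against 135 and 125 CPM. For these 3 genes the transgenic male and female were closer to each other in this class than in all cells. Adra2c was 1.69 and 0.419 to 2.13 CPM in wild-type mice and 20.1 and 10.9 CPM in transgenic mice. The ratios within a protocol were smaller for Penk (2.34 and 2.32), P4ha3 (2.21 and 1.6), Cth (3.17 and 1.66) and Prr32 (1.35 and 2.24). The 10 fibroblast markers summed to 313.8 CPM in the Psmb11+ cells of the transgenic female, 66.1 CPM in those of the male and 125 to 192.8 CPM in wild-type mice. Without Dcn they summed to 202.5 CPM in the Psmb11+ cells of the transgenic female and to 21.5 CPM in those of the male, against 38.4 to 68.2 CPM in wild-type mice, and their part was not tested within this class. Prss16 was higher in this class too, at 5100 CPM in the transgenic male against 2525 CPM in the non-barcoded wild-type male and at 6791 CPM in the female against 5333 to 6268 CPM. Thymocyte markers summed to less within each protocol, at 44.5 against 166 CPM and at 448.2 against 557.7 to 1395 CPM, and the part of either was not tested.

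The cells with none of the 3 markers gave a similar picture: all 8 genes were above the wild-type mice of their own protocol, where 10.7% of 21179 genes were. Serpinf1 was 5.74 to 28.2 CPM in wild-type mice and 69.3 and 212 CPM in transgenic mice, and Spon2 was 2.31 to 29.7 CPM against 65.8 and 257 CPM. In the transgenic female these levels were at least as high as in her Psmb11+ cells. Prss16 was also higher in this class within each protocol, at 376 CPM in the transgenic male against 75.1 CPM in the non-barcoded wild-type male and at 2575 CPM in the transgenic female against 400 to 588 CPM in barcoded wild-type mice. What part this has in the difference was not tested.

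The Krt5+ cells differed between the transgenic mice. In the female, all 8 genes were above the barcoded wild-type mice, with 78.8 against 9.36 to 15.6 CPM for Serpinf1, 96.9 against 21.03 to 29.9 CPM for Spon2 and 153.9 against 57.5 to 69.9 CPM for P4ha3. In the male, Serpinf1 was 12.8 CPM against 3.23 in the non-barcoded wild-type male and Spon2 15.3 against 4.56 CPM, and no gene was above all 4 wild-type mice. Counted within each protocol, 7 of the 8 genes were higher in both transgenic mice (5.8% of 16968 genes), all but Adra2c, which had 0 transcripts in this class of the transgenic male. For several of these genes the difference in the male was small or lay at low levels. His ratio to the non-barcoded wild-type male was 1.21 for Sipa1l2, 1.25 for P4ha3 and 1.63 for Penk. Prr32 was 2.55 against 0 CPM and Cth 3.4 against 1.14 CPM. Prss16 was 1249 CPM in the Krt5+ cells of the female against 260 to 386.8 CPM in barcoded wild-type mice, and its part was not tested.

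In Aire+ cells, 3 of the 8 genes were above the wild-type mice of their protocol in both transgenic mice (10.6% of 17533 genes), namely P4ha3, Cth and Prr32. Serpinf1 was 4.81 CPM in the Aire+ cells of the transgenic male against 6.76 CPM in the wild-type male, and Spon2 0.801 against 0.922 CPM. In the female they were 32.3 and 83.7 CPM, against at most 5.37 and 8.45 CPM in barcoded wild-type mice. Aire+ cells were 10.2% of the cells of the male and 5.44% of those of the female, and Prss16 in the Aire+ cells was 56.1 CPM in him and 1458 CPM in her.

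**Figure D2:**
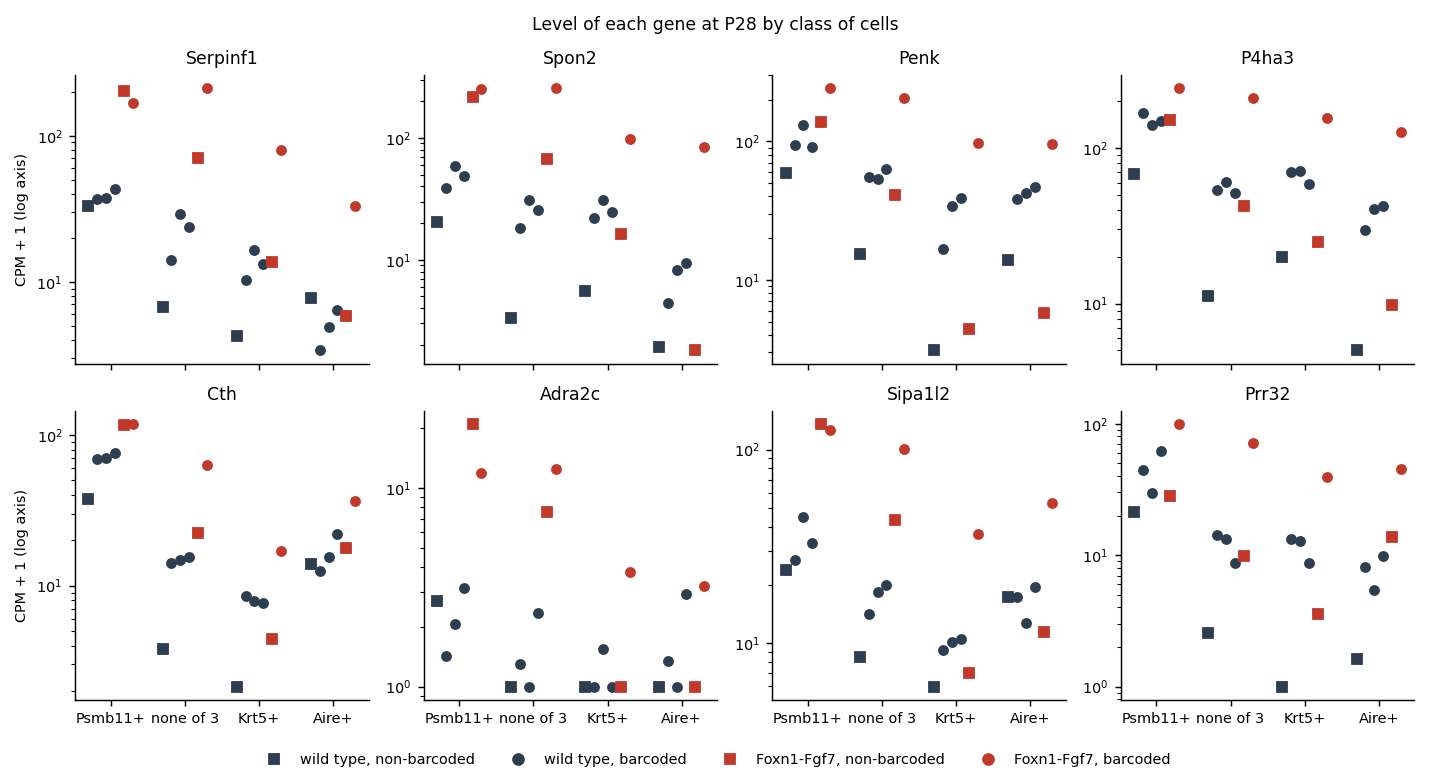
Level of each gene at P28 in 4 classes of cells (CPM with 1 added, log axis), 1 point per mouse, with wild-type mice in dark blue and Foxn1-Fgf7 mice in red, non-barcoded mice as squares and barcoded mice as circles. For Serpinf1, Spon2, Cth, Adra2c and Sipa1l2 both red points lie above all dark points in Psmb11+ cells and in cells with none of the 3 markers, while in Krt5+ and Aire+ cells the red square of the transgenic male lies among or near the dark points.

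A level summed over cells also depends on the shares of the classes, and the transgenic female had a larger share of Psmb11+ cells. With the wild-type mean level in each class and her own class shares, her levels would have been 1.45 (Sipa1l2) to 2.11 times (Cth) those of wild-type mice. The remaining factor within classes was 6.83 for Serpinf1, 8.05 for Spon2, 12.3 for Adra2c, 4.79 for Sipa1l2, 3.62 for Prr32, 3.23 for Penk, 2.59 for P4ha3 and 2.4 for Cth. The wild-type means behind her factors include the non-barcoded male. In his Psmb11+ cells Cth was 36.3 CPM against 68.3 to 75.2 CPM in barcoded mice, while Adra2c (1.69 CPM) lay within their range. In the transgenic male the shares gave factors of 0.953 to 1.11, and the factor within classes was 12.3 for Adra2c, 3.9 for Serpinf1, 3.33 for Spon2, 2.69 for Sipa1l2 and 1.72 for Cth. For Prr32 (0.957), P4ha3 (0.868) and Penk (0.844) it was near or below 1 against the mean of all 4 wild-type mice, which includes the barcoded ones. A class can itself hold different mixtures of cells, which these factors do not separate.

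**Figure D3:**
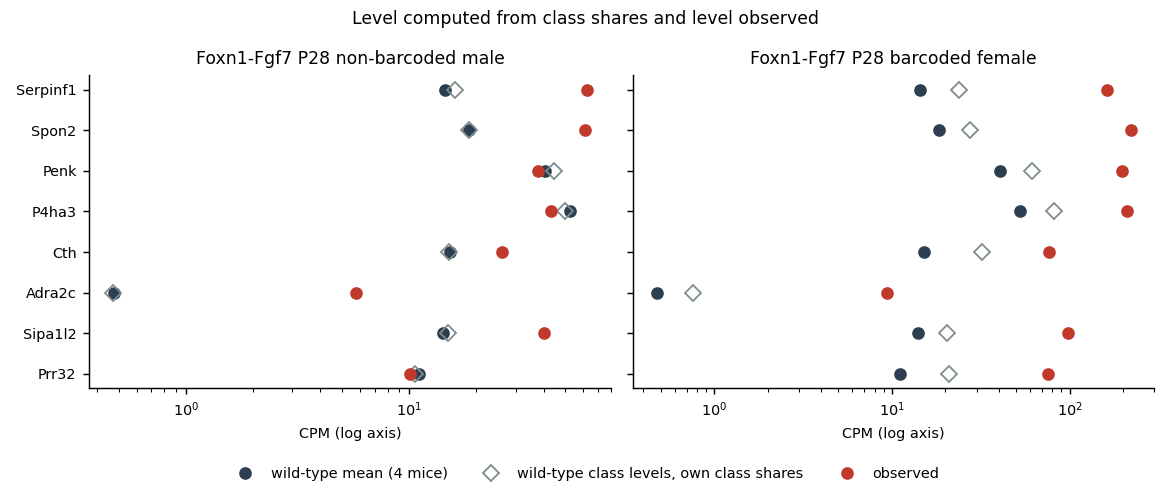
Level of each gene in the transgenic male (left) and female (right) in CPM (log axis), as the mean of the 4 wild-type P28 mice (dark circles), as computed from wild-type class levels and the mouse's own class shares (open diamonds) and as observed (red circles). In the female the diamonds lie 1.45 to 2.11 times to the right of the dark circles and the observed levels 2.4 to 12.3 times further.

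More cells held these transcripts in the transgenic female. In cells thinned to 1000 transcripts, Spon2 was detected in 15.8% of her cells and in 3.24% of those of the transgenic male, against 0.238 to 2.29% in wild-type P28 mice. P4ha3 was detected in 19.2% and 2.95%, against 1.31 to 6.28%, and Serpinf1 in 11.9% and 3.62%, against 0.358 to 1.44%. At least 2 of the 8 genes were detected together in 20.6% of her cells and in 26.4% of her Psmb11+ cells, against 0.358 to 1.76% and 3.23 to 6.45% in wild-type mice. The shares in the transgenic male were 3.62% of all cells and 14.3% of Psmb11+ cells. The mean number of the 8 genes detected per cell was 0.807 in all cells and 1.005 in Psmb11+ cells of the female. In the male it was 0.158 and 0.524. More frequent detection of each gene raises the share with at least 2 by itself. Whether the genes shared cells beyond that was not tested. In her, 1594 of 3247 cells had at least 1 transcript of Spon2 before thinning. Adra2c was detected in 0.954% of her thinned cells.

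Cells with transcripts of at least 3 of 10 fibroblast markers were more frequent in the transgenic female (10.6%) than in the transgenic male (1.33%) and in wild-type P28 mice (1.73 to 3.54%). In her they held 15.2% (Cth) to 23.5% (Spon2) of the transcripts of each of the 8 genes. The markers were counted before thinning, so the share of such cells also depends on depth. The median was 8654 transcripts per cell in her, 7055 in him and 4728 to 12358 in wild-type P28 mice. Summed over all cells the markers were 345.9 CPM in her and 160 CPM in him, against 172.4 to 342 CPM in wild-type P28 mice, and none of the 10 was at 0. Without these cells, Serpinf1 was 154.2 CPM in her, Spon2 203.03 CPM, Penk 188.2 CPM and P4ha3 209 CPM, so the levels stayed close to those of all cells.

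The genes were also compared between sorted and unsorted cells of wild-type mice. The unsorted levels are among those on which the genes were selected, so a low level in them favours this contrast too, and the calls are a description from which nothing is read about the 8 genes as a group. Ly51 marks cTECs, and UEA-1 is a lectin that binds mTECs. In 3 wild-type P28 mice with both kinds of libraries, 5 of the 7 genes that passed the filter were called higher in Ly51+ than in unsorted cells, where 11.3% of 16944 genes were called higher (edgeR, mouse as a block). Prr32 was 35.8, 74.6 and 69.4 CPM in the Ly51+ cells of the non-barcoded male, female A and female B, against 2.1, 12.4 and 15.8 CPM in their unsorted cells (7.48-fold, adjusted p = 0.00262). Cth was 47.9, 69.8 and 77.6 CPM against 5.9, 16.7 and 22.9 CPM (4.91-fold, adjusted p = 0.00184), and P4ha3 206.5, 208 and 171.7 CPM against 14.8, 67.8 and 65.5 CPM (4.8-fold, adjusted p = 0.0136). Penk (3-fold, adjusted p = 0.0307) and Sipa1l2 (2.86-fold, adjusted p = 0.0268) were also higher in the Ly51+ cells of all 3 mice.

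Serpinf1 and Spon2 did not pass, and for Serpinf1 the mice went different ways. Serpinf1 was 127 CPM in the Ly51+ cells of the non-barcoded male against 6.78 CPM unsorted, but 15.97 against 19.7 CPM in female A and 23.7 against 19.6 CPM in female B (adjusted p = 0.274). Spon2 was 234.2 against 3.66 CPM in the male, 64.99 against 28.4 CPM in female A and 33.2 against 24.4 CPM in female B, higher in all 3 mice (adjusted p = 0.145). Sex and protocol differ between these mice and cannot be told apart. Some Ly51+ levels of the non-barcoded wild-type male lay above the Psmb11+ levels of the transgenic male. These were Spon2 (234.2 against 217.03 CPM), P4ha3 (206.5 against 149.5 CPM) and Prr32 (35.8 against 27.3 CPM). Serpinf1 (127 against 202.6 CPM), Penk, Cth, Adra2c and Sipa1l2 lay below. A sort and a class by transcripts are unlike measures, and the difference was not tested. Without female B the calls of Penk (adjusted p = 0.114), P4ha3 (0.0604) and Sipa1l2 (0.1) were lost, and without the mouse as a block that of Penk (0.0812), whereas Cth and Prr32 kept theirs in all 6 alternatives. Spon2 was called without the non-barcoded male (log2 difference 0.88, adjusted p = 0.00168) and without a filter (0.0123). Adra2c had 1, 2 and 2 transcripts in the Ly51+ cells, too few for the filter.

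UEA-1+ cells had been sorted from the non-barcoded male at P28 and from the P0 female, with no second mouse at either age. In the male, P4ha3 was 28.6 CPM against 14.8 CPM unsorted and Spon2 7.28 against 3.66 CPM, both higher in UEA-1+ cells. Sipa1l2 was 5.04 against 9.06 CPM, Cth 4.48 against 5.9 CPM, Penk 1.68 against 13.5 CPM and Prr32 1.68 against 2.1 CPM. Serpinf1 and Adra2c had 0 transcripts, which allows up to 2.07 CPM, against 6.78 and 0.0975 CPM unsorted. At P0, Serpinf1 was 8.62 CPM in UEA-1+ cells against 89.5 CPM unsorted, and Spon2 8.27 against 86.2 CPM. Penk was nearest to its unsorted level there, at 101.9 against 164 CPM. In the Ly51+ cells of the 1-year wild-type female, P4ha3 was 196 CPM, Prr32 131 CPM and Penk 96.1 CPM, against 66.9, 31.8 and 48.6 CPM unsorted. Spon2, Cth and Sipa1l2 were also higher in these Ly51+ cells. Serpinf1 was lower, at 29.9 against 51 CPM, and Adra2c rested on 1 transcript.

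**Figure D4:**
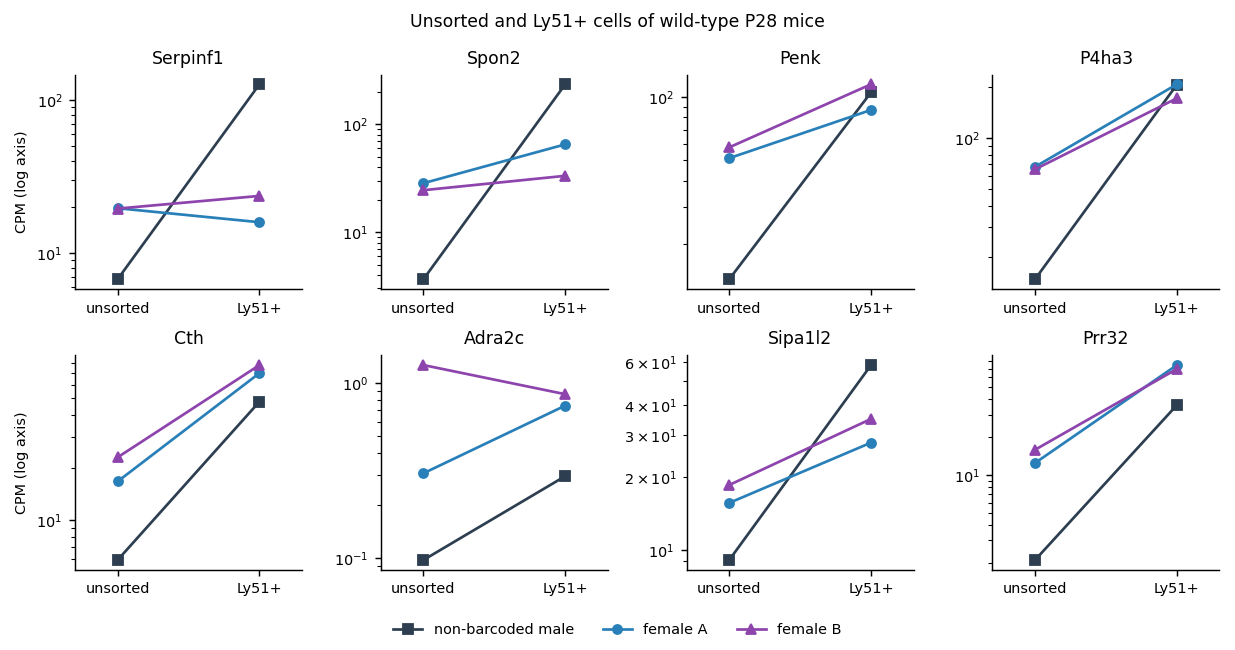
Level of each gene in unsorted and in Ly51+ cells (CPM, log axis) of 3 wild-type P28 mice, with 1 line per mouse. All 3 lines go up for Spon2, Penk, P4ha3, Cth, Sipa1l2 and Prr32, whereas Serpinf1 goes from 6.78 to 127 CPM in the non-barcoded male and stays between 15.97 and 23.7 CPM in the females.

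At younger ages most of the 8 genes were high without the transgene. The 4 wild-type P28 mice also served in the contrast by which the genes were chosen, so a low level in them favours both contrasts, and the calls are given as a description from which nothing is read about the 8 genes as a group. At E16.5, 6 of the 8 genes were called higher than in these mice, where 11.2% of 21660 genes were called higher and 16.4% lower, and at P0 6 of the 8 were, where 6.28% were called higher (edgeR). Only 1 mouse stands for each of these ages, and the test assumes that it varies like the 4 P28 mice.

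Serpinf1 was 80.6 CPM at E16.5 and 89.5 CPM at P0 against 14.4 ± 6.37 CPM at P28 (SD, n = 4; adjusted p = 0.00731 and 0.0102, edgeR). Sipa1l2 was 89.0 and 64.4 CPM against 14.1 ± 4.04 CPM (adjusted p = 0.00247 and 0.00699), and Cth 73.01 and 80.6 CPM against 15.1 ± 7.03 CPM (adjusted p = 0.013 and 0.0165). These 3 genes kept their calls at both ages in all 10 alternatives. Adra2c was 6.32 and 8.26 CPM against 0.47 ± 0.537 CPM (adjusted p = 0.0157 and 0.0176), and its call at P0 was lost without the barcoded male (0.0531).

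Penk was 168.9 CPM at E16.5 and 164 CPM at P0 against 40.8 ± 19.4 CPM (adjusted p = 0.0248 and 0.0384, edgeR), and P4ha3 was 186.8 and 244 CPM against 52.6 ± 25.3 CPM (adjusted p = 0.0454 and 0.0373). Both were above all 4 P28 mice, but their calls were less firm: that of P4ha3 was lost at both ages without female A, without the barcoded male and without female B (adjusted p up to 0.0757), and that of Penk without the barcoded male (0.0562 at E16.5 and 0.0838 at P0) and, at P0, without female A (0.0542). Spon2 was 34.9 CPM at E16.5 and 86.2 CPM at P0 against 18.5 ± 10.9 CPM, and passed at neither age (adjusted p = 0.261 and 0.0587). Prr32 had an order of its own, with 4.66 CPM at E16.5, 36.2 CPM at P0 and 11.1 ± 6.14 CPM at P28 (adjusted p = 0.43 and 0.11). At P0 Spon2 was called higher with DESeq2 (adjusted p = 0.0148), without a filter (0.0356) and without cells with at least 3 fibroblast markers (0.0496). Without the non-barcoded male, Spon2 was called higher at E16.5 (adjusted p = 0.0471) and at P0 (0.00228), and Prr32 was called lower at E16.5 (0.00885) and higher at P0 (0.00388).

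Set beside these ages, the P28 transgenic female was above the P0 mouse for Serpinf1, Spon2, Sipa1l2, Prr32, Penk (198 against 164 CPM) and Adra2c (9.36 against 8.26 CPM), and below it for P4ha3 (211 against 244 CPM) and Cth (76.7 against 80.6 CPM), with no test. The P28 transgenic male was below the P0 mouse for all 8 genes. The shares of Psmb11+ cells were 51.6% at E16.5 and 54.8% at P0. Within Psmb11+ cells, Serpinf1 was 74.9 CPM at E16.5 and 73.8 CPM at P0, against 36.6 ± 4.14 CPM in wild-type and 202.6 and 166 CPM in transgenic P28 mice. Spon2 was 38.7 and 73.6 CPM, against 40.6 ± 16.2 CPM in wild-type and 217.03 and 252.5 CPM in transgenic P28 mice. Cth showed less difference, with 81.2 and 87.8 CPM at the earlier ages, 62.2 ± 17.6 CPM in wild-type and 114.9 and 117 CPM in transgenic P28 mice. In both transgenic P28 mice, Serpinf1, Spon2, Cth, Adra2c and Sipa1l2 were above either earlier age in this class, with no test. The other 3 genes were not: Penk was 136.5 CPM in the transgenic male against 202.7 CPM at E16.5 and 161.5 CPM at P0, and P4ha3 was 149.5 and 243.3 CPM in the transgenic male and female against 260.2 CPM at P0. Prr32 was 27.3 CPM in the male against 41.7 CPM at P0. All these comparisons use the P28 transgenic levels by which the genes were chosen. The share of all genes was not counted for them, so nothing is read from how many genes went either way.

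Of all 21660 genes tested at E16.5, 11.2% were called higher and 16.4% lower than at P28 (edgeR). In the ERK list 6 of 16 genes were called higher and 2 lower, with a median log2 fold change of 1.34 against -0.35 over all genes. Of 8 Fgf receptors and ligands 1 was called higher (Fgfr2) and 4 lower, with a median of -2.78, and Fgf1 was 0.115 times the P28 level (adjusted p = 0.0183). Etv5 was 6.24-fold higher (adjusted p = 0.00222), while the cell cycle gene Ccnd1 and the phosphatase gene Dusp4 were lower at 0.121 and 0.167 times the P28 level (adjusted p = 0.00365 and 0.01). Relatives of the 8 genes went both ways. P4ha1, another catalytic subunit of the hydroxylase, was 4.61-fold higher (adjusted p = 0.00395), and of the 16 genes of collagen modification 2 were called higher and 1 lower. In the cysteine list 2 of 13 were higher, including Cbs, which makes the substrate of Cth (6.7-fold, adjusted p = 0.0165), and 1 was lower. Of 9 opioid genes 0 were higher and 3 lower, including the precursors Pdyn and Pomc (0.0634 and 0.181 times the P28 level, adjusted p = 0.00297 and 0.0209). Among 7 serpins 2 were higher and 3 lower, among 7 adrenergic receptors 2 higher and 1 lower, among 7 spondins and related proteins 1 higher and 2 lower, among 12 amino acid response genes 5 higher and 0 lower, and among 8 relatives of Sipa1 0 higher and 2 lower. At P0, 6.28% of all genes tested were called higher and 16.8% in either direction. The ERK list had 5 higher and 2 lower there, the Fgf list 1 and 3, collagen 1 and 0 and cysteine 1 and 4. Amino acid response genes had 1 and 1, opioid genes 0 and 4, and adrenergic receptors 0 and 1. Spondins and related proteins had 1 and 0, and serpins and relatives of Sipa1 0 and 2 each.

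Between Psmb11+ and Krt5+ cells of wild-type P28 mice, where 7.9% of all genes tested were called higher and 9.05% lower, the lists were counted in the same way. In the collagen list 0 of 15 genes were higher and 8 lower, including Lox and P4ha2 (0.269 and 0.405 times, adjusted p = 6.81e-05 and 0.00606, edgeR), and among 6 serpins 0 were higher and 5 lower. Of 12 amino acid response genes 1 was higher, Psat1, a serine synthesis enzyme (3.04-fold, adjusted p = 7.78e-04), and 3 were lower. In the ERK list 1 of 15 was higher and 2 lower, and in the cysteine list 1 of 13 higher and 2 lower. Of 7 Fgf ligands and receptors 0 were higher and 1 lower, of 7 spondins and related proteins 0 and 1, of 8 relatives of Sipa1 0 and 2, and of 6 opioid genes and 3 adrenergic receptors 0 in either direction.

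At 1 year, none of the 8 genes was called different from P28 in wild-type mice, where 0.355% of 21660 genes were called in either direction (edgeR). At an unadjusted p under 0.05 it was 1 gene, and DESeq2 called 1. Serpinf1 came nearest, at 51 CPM against 14.4 ± 6.37 CPM (3.69-fold, adjusted p = 0.159), and its level was above all 4 P28 mice. Its call depended on the fit, with adjusted p between 0.0225 (DESeq2) and 0.276 over 10 alternatives, and 0.0364 without the non-barcoded male. By class, Serpinf1 was 21.4 CPM in Psmb11+ cells, below all 4 P28 mice (36.6 ± 4.14 CPM). It was above all 4 in Krt5+ cells (58.6 against 10.1 ± 5.27 CPM), in Aire+ cells (21.8 against 4.61 ± 1.89 CPM) and in cells with none of the 3 markers (54.3 against 17.5 ± 10.01 CPM). Prr32 was 31.8 CPM (adjusted p = 0.418, and 0.0437 without the non-barcoded male) and Cth 6.94 CPM, below 3 of the 4 P28 mice (adjusted p = 0.54). Fibroblast markers summed to 1683 CPM in this mouse, of which Dcn was 1561 CPM, and parathyroid markers to 25902 CPM, of which Pth was 16894 CPM, and neither was above 342 and 886 CPM in wild-type P28 mice. The part of these cells in the levels was not tested.

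In the 1-year transgenic mouse all 8 genes were below both P28 transgenic mice. The genes were chosen for high levels in those P28 mice, which favours a lower level in any other mouse. The share of all genes below both was not counted, and nothing is read from this count. Beside the 1-year wild-type mouse, 7 of the 8 were lower in the 1-year transgenic mouse. Of these, 5 were at under 0.5 times the wild-type level, which 7.41% of 16970 genes were. Serpinf1 (30.5 CPM) and Adra2c (1.45 CPM) were still above all 4 wild-type P28 mice. The ratio of transgenic to wild type was 0.111 for Prr32 (3.53 against 31.8 CPM), 0.164 for Penk (7.99 against 48.6 CPM), 0.372 for P4ha3 (24.9 against 66.9 CPM), 0.402 for Spon2 (7.26 against 18.1 CPM) and 0.481 for Cth (3.34 against 6.94 CPM). Sipa1l2 stood at 0.505 (8.03 against 15.9 CPM) and Serpinf1 at 0.599 (30.5 against 51 CPM). Taken between medians over libraries, the ratio was lower still for Prr32 (0.05), Penk (0.08) and Cth (0.19). The median ratio was 0.441 for the 8 genes and 1.02 for all genes.

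Adra2c alone was higher in the transgenic mouse, at 1.45 against 0.505 CPM, a ratio of 2.87 where 5.89% of genes were above 2, and it rested on 30 and 4 transcripts. There is 1 mouse per group, so these ratios have no replicate check, and sex differs between them (transgenic male, wild-type female), which cannot be told apart from the genotype. Fgf7 remained at 20.3 CPM in the transgenic mouse, below 47.4 and 100.2 CPM at P28. Its Psmb11+ cells were 2.77% of all cells and its Krt5+ cells 70.7%, against 7.63% and 53.2% in the 1-year wild type. Class shares gave factors of 0.694 (Cth) to 1.07 (Serpinf1), and the factors within classes were 0.138 for Prr32, 0.202 for Penk, 0.409 for P4ha3, 0.435 for Spon2, 0.554 for Serpinf1, 0.569 for Sipa1l2, 0.717 for Cth and 3.58 for Adra2c. In its 82 Psmb11+ cells, Serpinf1 was 17.5 CPM and Spon2 38.6 CPM, against 21.4 and 25.99 CPM in the wild type. Parathyroid markers summed to 1976 CPM and fibroblast markers to 794 CPM in the transgenic mouse, both sums lower than in the wild type. The fibroblast sum was led by Dcn in both mice, with 1561 CPM in the wild type. Cells with at least 3 fibroblast markers went the other way, at 6.5% in the transgenic mouse and 3.02% in the wild type. This share was counted without thinning, and the median depth was 6798 transcripts per cell in the transgenic mouse and 3768 in the wild type.

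The libraries of each mouse showed how even the levels were. Across 44 libraries of the P28 transgenic female, Serpinf1 was 83.8 CPM at the lowest, 162 at the median and 218.7 at the highest, and Spon2 97.5, 227 and 322 CPM, with 0 libraries at 0. In 27 wild-type libraries at 1 year, Serpinf1 was 20.2, 50.7 and 96.8 CPM, and in 60 transgenic libraries 5.41, 26.9 and 84.3 CPM. For Penk these were 6.49, 35.1 and 378 CPM against 0, 2.87 and 64.1 CPM, with 23 transgenic libraries at 0. Prr32 was at 0 in 2 of 27 wild-type and 30 of 60 transgenic libraries. In the same wild-type libraries Spon2 ranged from 0 to 121 CPM with a median of 7.37 CPM. Libraries of 1 mouse are not replicates of its genotype.

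**Figure D5:**
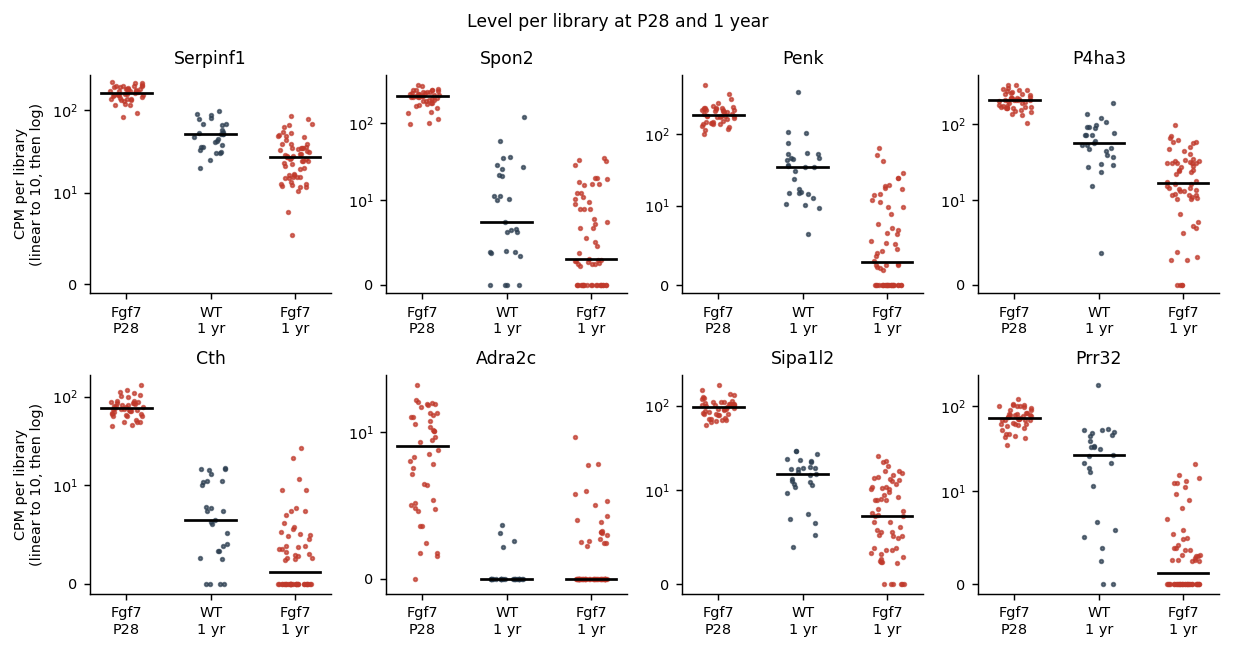
Level of each gene in every library (CPM, linear to 10 and logarithmic above) of the P28 transgenic female, the 1-year wild-type female and the 1-year transgenic male, with black bars at the median over libraries. The median of Serpinf1 is 162, 50.7 and 26.9 CPM, and that of Penk 182, 35.1 and 2.87 CPM.

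Over 38 units of mouse and class with at least 50 cells, the genes whose levels followed the 8 genes most closely were found by Pearson's r of log2(CPM + 10), as a description, since the units share mice, depth and protocol and the transgenic mice weigh on all of them. Serpinf1 was followed most closely by Etv5 (r = 0.93), then Lrpap1 and Ackr4, the last an atypical chemokine receptor of cTECs. Spon2 went with Map2k1, the kinase above ERK (r = 0.89), Camk4 and Serpinf1. Adra2c went with Sipa1l2 (r = 0.86), Etv5 and Lrpap1, and Sipa1l2 with Cth (r = 0.89), Tmem169 and Ugdh. Penk was closest to Entpd6 (r = 0.91), Got1 and Fgf14, P4ha3 to Lancl1 (r = 0.93), the protease gene Ctsl and Hic1, and Cth to Gm14207 (r = 0.94), Galnt10 and Cdh4. Prr32 had the lowest values, with Clic5 (r = 0.83), Scarf2 and Impact. Between Serpinf1 and Spon2 r was 0.85, and between Serpinf1 and Prr32 0.56.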

How the data were processed

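Single TECs had been sequenced in 380 libraries of 96 wells. The authors deposited for each library a table of estimated counts: reads had been mapped by BWA (0.6.2-r126, after bcl2fastq 2.17.1.14, per the labels' processing notes) to mouse transcript models with ERCC spike-ins added. They used reads in the sense direction with 1 alignment, counted molecular barcodes per gene and cell, and converted them to transcripts by binomial statistics with 4096 possible barcodes. The deposited values carry no other score or normalization between cells. Converted back, each value was a whole number of barcodes to within 4.09e-12. Of the 192 columns of a table, the 96 that held at least 80% of its transcripts were read (median 96.8%, lowest 84.0%). In 2 libraries no such set of columns was found, and they were not used.

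The lower limit on transcripts per cell was 1500 at P28, 3000 at E16.5, P0 and in the 1-year transgenic mouse, and 1000 in the 1-year wild type, following the study's methods, which left 25154 cells. The study's limit on Kcnq1ot1 (2% of a cell's transcripts) took out 0 cells. No doublets were called. Levels are CPM without mitochondrial genes, spike-ins and Hprt. For classes, 1186 of 23585 unsorted cells were too shallow to be thinned to 1000 transcripts (random seed 7).

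For tests, transcripts were summed per mouse, or per mouse and class or sort, and rounded, and fitted over all genes with edgeR (version 4.0.16, R 4.3.3): low counts were filtered by filterByExpr, libraries scaled by TMM, and quasi-likelihood p-values adjusted by Benjamini-Hochberg, with calls at 0.05. DESeq2 (version 1.42.0), RLE factors, other filters, class limits and protocol terms, and leaving out each mouse were alternatives. The block in the class and sort fits is the mouse, as the libraries are labelled. The non-barcoded wild-type male includes 4 libraries labelled as a biological replicate, with high Xist, so this block may hold cells of more than 1 animal. The script was tested on simulated data. For the rest, matplotlib 3.10.9, pandas 2.3.3, scipy 1.17.1, numpy 2.4.6 and Python 3.11.15 were used. Some libraries of the non-barcoded wild-type male are labelled as biological or technical replicates. For the other libraries nothing says that those of a mouse are separate preparations, and spread was measured over mice only. The list of cell barcode sequences, lineage barcodes and flow cytometry were not used here.

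The 8 genes and the lists were chosen with earlier results of these data known. Named besides them were, from each list, at most 3 genes of the largest absolute log2 fold change among those past the threshold, for each of the 8 genes the 3 of highest correlation, and Psmb11, Krt5, Aire, Fgf7 and Fgfr2. Markers served as checks. Myeloid (7 genes, of which 6 are listed), endothelial (6), tuft (6) and proliferation (5) markers summed to 4.74 to 101, 4.13 to 27.9, 13.7 to 703 and 96.7 to 1083 CPM per mouse, cTEC markers (10) to 1581 to 23229 CPM and mTEC markers (10) to 702 to 6029 CPM. Fgfr2 was 68.1 ± 13.9 CPM (SD, n = 4) in wild-type P28 mice and 61.9 and 187.2 CPM in transgenic ones.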

Additional observations from a re-analysis of the deposited data

Results flagged for a closer look

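In 3 of 32 sets of 4 wild-type P28 mice (8 genes, in all cells and in 3 classes), 1 mouse stood far from the other 3 by Dixon's test at the 95% level, a rate of which chance gives about 1 in 20. P4ha3 in all unsorted cells was 14.8 CPM in the non-barcoded male and 62.5 to 67.8 CPM in the 3 barcoded mice. Cth in Krt5+ cells was 1.14 CPM in the non-barcoded male and 6.7 to 7.51 CPM in the others. Adra2c in Krt5+ cells was 0.548 CPM in female A and 0 in the others, and with 3 mice at 0 any value in the fourth would have stood out, so this set is not to be read against that rate. The non-barcoded male is the 1 wild-type P28 mouse whose wells were used whole.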

How the results depend on the processing

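Of 753 recomputed values of the 8 genes, 35 lost a call, 44 gained one, 9 with no test moved past a set limit and 7 changed direction, and the others kept direction and side of the threshold. That limit was the spread between mice at P28 and a fold change of the ratio at 1 year. The share of tested genes called at P28 between genotypes was 0.647%, and 5.7% with DESeq2, 1.1% without a filter and 0% without the protocol covariate (edgeR, with 1267 genes at an unadjusted p under 0.05). With 1 mouse left out it lay between 0% (without wild-type female A) and 11% (without the non-barcoded wild-type male), and was 0.0142% without the transgenic female. For E16.5 it was 27.6% (18.2 to 44.4% with 1 mouse left out) and for P0 16.8% (9.72 to 31.9%), the highest being those from barcoded mice only. At 1 year it was 0.355%, and 4.46% with DESeq2, 0.641% without a filter, 4.05% from barcoded mice only and 0.0704 to 4.05% with 1 mouse left out. Without the replicate block, that is the mouse, Psmb11+ against Krt5+ cells gave 7.33% in place of 16.9% in wild-type and 3.63% in place of 12% in transgenic mice, Aire+ against Krt5+ cells 25% in place of 41.3% and 11% in place of 21.8%, and Ly51+ against unsorted cells 23.6% in place of 33.1%. With 1 mouse left out these 5 were 9.75 to 18.6%, 5.16 to 15.7%, 30.7 to 42.1%, 7.48 to 25% and 9.14 to 42.7%. The lowest was found without the barcoded wild-type male for E16.5, P0, 1 year and both comparisons in wild-type classes, without 1 of the transgenic mice for the transgenic classes, and without female B for Ly51+ cells (21.7% without female A). Stricter class limits gave 27.2% for the first, and no filter gave 25.2% and 13.8% for the Aire+ cells of the genotypes.

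None of the values that changed direction was called. At 1 year against P28 Spon2 was -0.33 (log2) from barcoded mice only (-0.33 to 0.31 with 1 mouse left out), and Adra2c was -0.07 from these mice, -0.11 without cells with at least 3 fibroblast markers and -0.07 to 1.39 with 1 mouse left out. Penk in Aire+ against Krt5+ cells of transgenic mice was 0.03 with DESeq2 and -0.18 to 0.19 with 1 mouse left out. Why these values changed was not tested. Adra2c rested on 2 to 16 transcripts per wild-type mouse at P28, and there is 1 mouse per group at E16.5, P0 and 1 year.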
